A study of Mus musculus with 20 samples.

Results

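Left ventricles of adult mice lacking both de novo DNA methyltransferases in cardiomyocytes (DKO) were compared with those of control mice (CTL) after a sham operation. The differences were read gene function by gene function. The comparison rests on 8 of the 20 Illumina bead arrays of the series, which the sample labels assign to 4 sham CTL and 4 sham DKO hearts, and it was made over all 45281 probes of the array. DKO mice carried loxP-flanked alleles of *Dnmt3a* and *Dnmt3b* and a Cre recombinase transgene driven by the promoter of *Myl7*, the atrial myosin light chain, which is active in cardiomyocytes from early heart development. CTL mice were homozygous for both floxed alleles and carried no Cre, so that loss of the enzymes and presence of Cre cannot be told apart. All mice were male, were operated at 10 to 12 weeks of age without constriction of the aorta, and were killed 4 weeks later at 14 to 16 weeks. The remaining 12 arrays hold 6 CTL and 6 DKO hearts after transverse aortic constriction (TAC), which narrows the aorta and loads the left ventricle, and were used only to set the sham differences beside another set of hearts.

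Dnmt3a and Dnmt3b place methyl groups on cytosines of CG dinucleotides (CpG) that carry none on either strand, whereas Dnmt1 copies existing marks after DNA replication. In heart muscle, methylation patterns are remodelled during development and after birth, when some fetal genes are silenced and genes of the adult program lose methylation. Methylation of a promoter with many CpG usually goes along with a silent gene, and imprinted and germline genes are the classic examples.

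RNA was taken from whole tissue of the left ventricle. Fewer cells of a type and less RNA per cell therefore cannot be told apart in any value below. Cells other than cardiomyocytes kept both enzymes. The ventricular markers *Myl2*, *Myh6*, *Tnni3* and *Irx4* were above background on all 8 arrays, while the atrial marker *Myl7* was at background on all of them. Background was judged on each array by the 95th percentile of 1492 probes for olfactory and vomeronasal receptors, between 51.7 and 56.6 intensity units on the sham arrays. The array sham CTL 4 stood apart, with a correlation of 0.970 to 0.974 to the other sham arrays against 0.985 to 0.994 among those, and sham CTL 2 carried RNA of fast skeletal muscle genes, described with that list below. Medians of the skeletal muscle, endothelial and fibroblast lists are given with and without the array concerned.

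The array gave little information on the targeted genes themselves. Of 3 probes for *Dnmt3a*, 2 were above background on no sham array and the other on 1 of 8. Of 2 probes for *Dnmt3b*, 1 lay at background and the other had intensities of 112, 111, 112 and 121 on the CTL and 105, 105, 106 and 90.3 on the DKO arrays, a log2 fold change of -0.17 ± 0.08 (SE is the standard error, adjusted p = 0.867, exact two-sided permutation p = 0.0286). That permutation p is the smallest that 4 against 4 arrays allow. It restates that the groups did not overlap, which held for 3.89% of all probes. The position of the *Dnmt3a* and *Dnmt3b* probes relative to the deleted exons is not known, so they do not check the genotype labels. *Dnmt1*, the maintenance enzyme, had a log2 fold change of -0.19 (adjusted p = 0.867). The list of 22 genes of the DNA methylation machinery, which also holds the Tet oxidases, *Uhrf1* and the methyl-CpG binding proteins, held no called gene and no gene with an unadjusted p under 0.05, and its median log2 fold change was -0.01.

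A probe was called at an adjusted p under 0.05 in limma together with a fold change over 1.5. In sham hearts, 48 probes were called higher in DKO (0.106% of those tested) and 9 lower (0.0199%). They named 35 genes that rose and 8 that fell. Another 9 probes called higher name no gene, with log2 fold changes between 0.65 and 2.18. The arrays of the groups did not overlap at any of the 57 called probes, against 3.89% of all probes. Since the calls were made on these same arrays, this separation largely follows from the selection. Here and for single called genes below, it describes the values and is no separate support. Of the 35 genes, 17 rose more than 2-fold and 15 less. The called probes of the other 3 (*Pou4f1*, *Hoxc6* and *Arpp21*) were at background in CTL and give only a lower bound. By their called probe, 5 of the 35 genes were at background on all CTL arrays, 8 were above background on 1 to 3 CTL arrays, and 22 on all 4. All 8 genes that fell were still above background on the 4 DKO arrays. In the plot of every probe against its mean intensity, the genes that rose lay mostly at low to medium intensity.

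**Figure D1:**
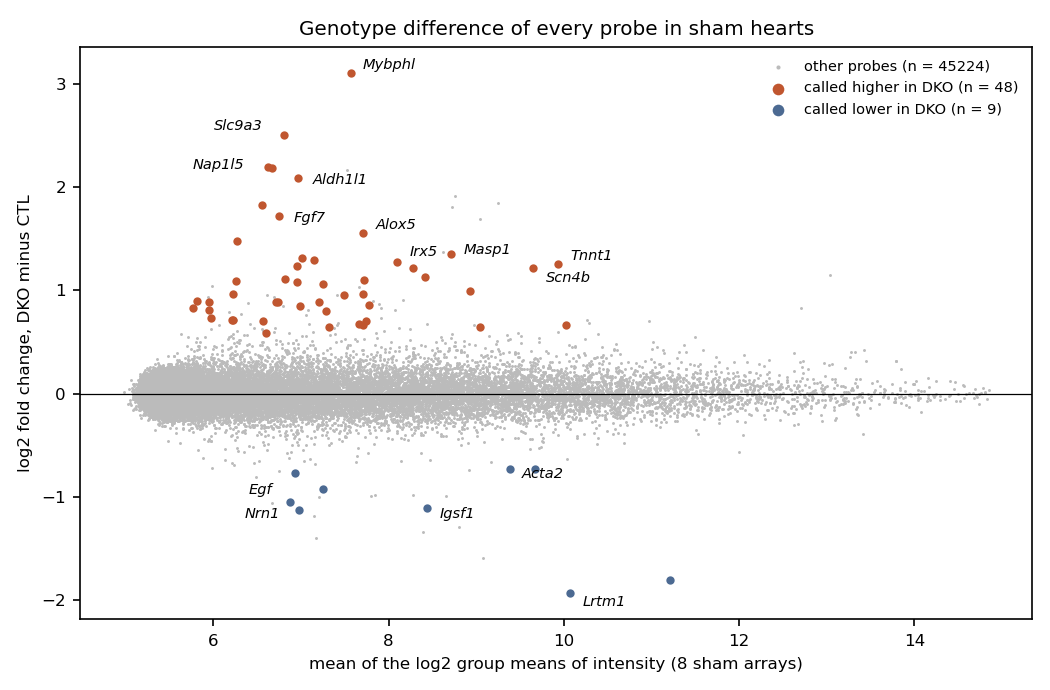
Log2 fold change of each probe, DKO minus CTL, against the mean of its log2 intensity in the 4 CTL and 4 DKO sham hearts. The 48 probes called higher (orange) and the 9 called lower (blue) stand out from the other probes (grey). *Mybphl* lies highest and *Lrtm1* lowest of the called probes.

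The promoters of 6 of these genes, read from a RefSeq table, are printed with every CpG in capitals. *Slc9a3*, *Aldh1l1* and *Krt8* are shown because the study examined methylation at their promoters, *Nap1l5* because it was the only imprinted gene called, *Alox5* because 3 separate probes rose, and *Lrtm1* because it fell most. Each stretch holds the 250 bases before the annotated start in GRCm38.p6, read 5′ to 3′ on the strand of the gene. They lie at chr13:74121163-74121412 on the plus strand (*Slc9a3*), chr6:90550543-90550792 on the plus strand (*Aldh1l1*), chr15:102004343-102004592 on the minus strand (*Krt8*), chr6:58907127-58907376 on the minus strand (*Nap1l5*), chr6:116461179-116461428 on the minus strand (*Alox5*) and chr14:29017958-29018207 on the plus strand (*Lrtm1*).
Slc9a3: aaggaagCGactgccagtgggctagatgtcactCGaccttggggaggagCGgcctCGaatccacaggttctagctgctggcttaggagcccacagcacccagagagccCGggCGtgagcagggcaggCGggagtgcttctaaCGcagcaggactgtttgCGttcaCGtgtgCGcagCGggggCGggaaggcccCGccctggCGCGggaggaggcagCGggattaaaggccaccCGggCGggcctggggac
Aldh1l1: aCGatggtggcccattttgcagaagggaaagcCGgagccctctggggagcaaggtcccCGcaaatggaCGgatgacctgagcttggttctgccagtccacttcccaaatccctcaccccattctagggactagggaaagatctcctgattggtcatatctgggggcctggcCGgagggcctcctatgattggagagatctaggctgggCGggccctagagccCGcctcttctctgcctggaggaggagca
Krt8: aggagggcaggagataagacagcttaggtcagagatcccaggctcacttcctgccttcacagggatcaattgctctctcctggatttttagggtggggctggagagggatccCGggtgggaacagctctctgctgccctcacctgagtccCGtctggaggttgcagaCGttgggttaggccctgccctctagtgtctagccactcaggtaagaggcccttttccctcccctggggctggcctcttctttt
Nap1l5: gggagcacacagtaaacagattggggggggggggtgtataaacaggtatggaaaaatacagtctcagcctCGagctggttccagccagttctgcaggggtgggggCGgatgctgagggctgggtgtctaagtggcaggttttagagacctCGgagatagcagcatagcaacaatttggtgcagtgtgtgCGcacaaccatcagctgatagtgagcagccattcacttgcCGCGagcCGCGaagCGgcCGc
Alox5: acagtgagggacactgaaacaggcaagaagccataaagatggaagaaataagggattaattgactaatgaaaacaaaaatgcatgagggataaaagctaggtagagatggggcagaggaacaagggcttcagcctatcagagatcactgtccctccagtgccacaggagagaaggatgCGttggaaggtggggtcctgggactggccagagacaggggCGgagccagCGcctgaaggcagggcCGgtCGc
Lrtm1: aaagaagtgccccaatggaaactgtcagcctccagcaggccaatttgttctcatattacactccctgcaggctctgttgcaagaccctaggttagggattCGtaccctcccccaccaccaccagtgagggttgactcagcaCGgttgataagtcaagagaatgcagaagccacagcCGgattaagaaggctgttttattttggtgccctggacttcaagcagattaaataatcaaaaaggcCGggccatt
A CpG reads the same on both strands, so each capital pair counts for both. The *Slc9a3* stretch holds 19 CpG, and 19.7% of all promoters in the table hold at least as many. The count is 10 for *Nap1l5* (37.8% of promoters hold at least as many), 7 for *Aldh1l1* (46.3%), 5 for *Alox5* (55.6%), 4 for *Lrtm1* (62.2%) and 3 for *Krt8* (71.0%). The promoters of genes that rose thus ranged from CpG-rich to CpG-poor. Methylation itself was not measured on these arrays.

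The 43 called genes were set against 44 functional lists with 1399 measured genes, 1 probe per gene. A total of 35 called genes fell into at least 1 list and 8 into none, and 22 lists held no called gene. The lists, which hold 1399 of the 19057 genes, were chosen with earlier results of these data known. Counts of called genes in lists, here and below, therefore describe the lists and do not test an enrichment. Over all 19057 genes, 0.184% rose and 0.042% fell by any of their probes, 3.41% had an unadjusted p under 0.05 with a positive difference and 4.29% with a negative one, and the median log2 fold change was -0.01. List medians ran from -0.17 to 0.20, and 34 of 44 lay within 0.05 of 0. In the 22 lists with a called gene, most other members lay near 0, as the plot of all list members shows.

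**Figure D2:**
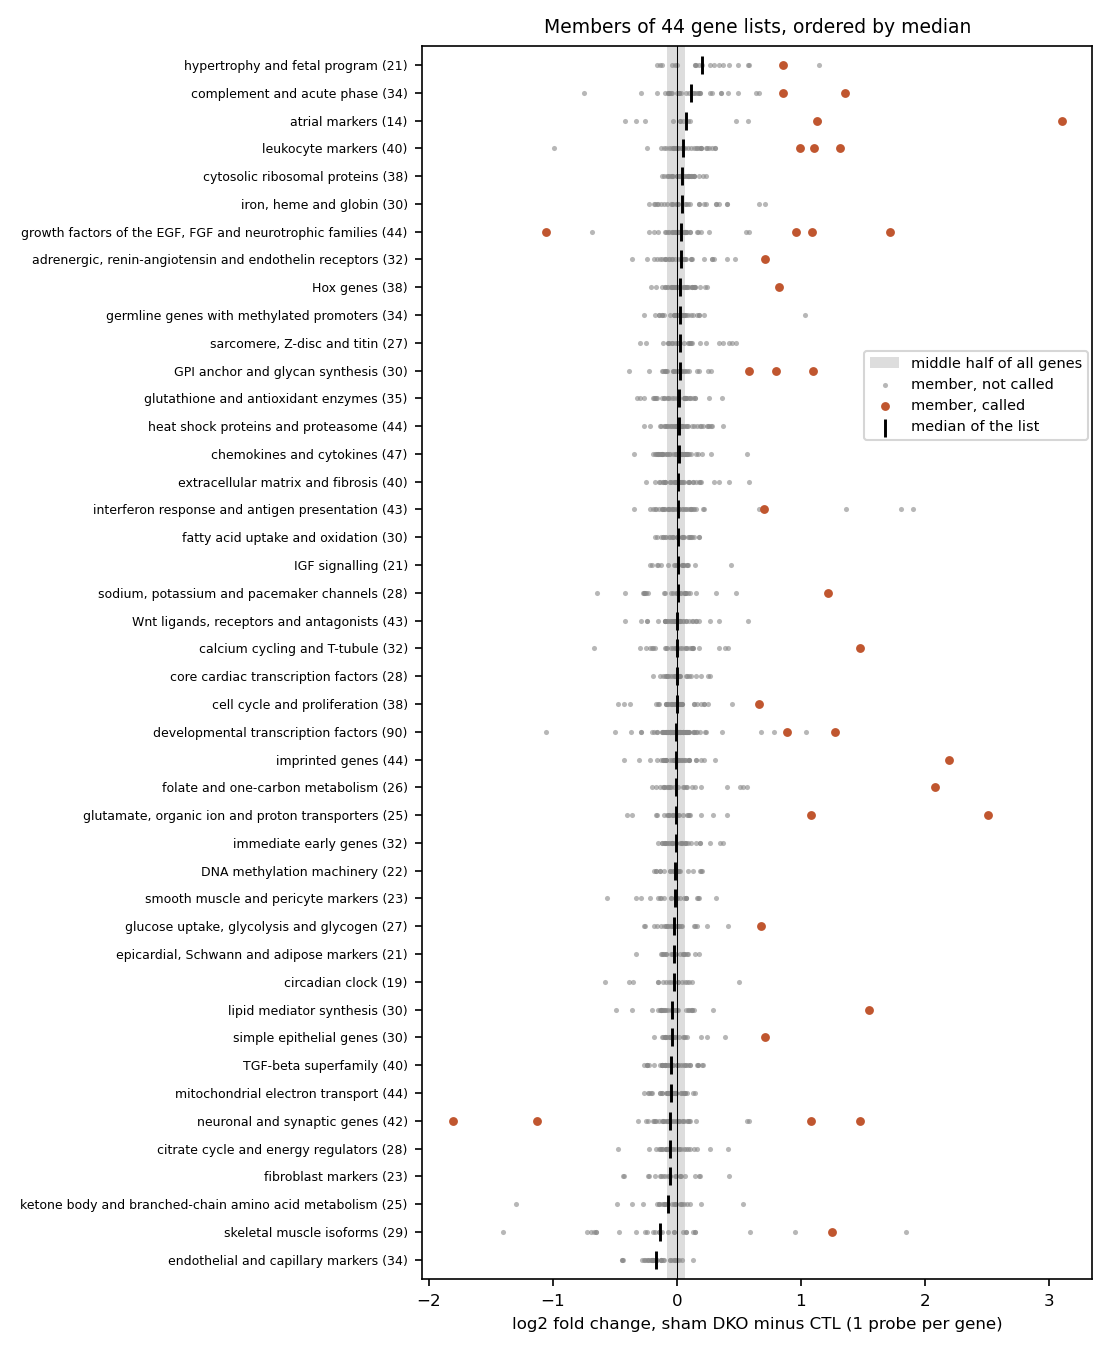
Log2 fold change in sham hearts, DKO minus CTL, of every member of 44 gene lists with 1 probe per gene. Rows are lists with the number of genes measured, ordered by median (black bar), orange points are members whose plotted probe was called, and the grey band is the interquartile range of all genes. The hypertrophy list has the highest median (0.20) and the endothelial list the lowest (-0.17), while the called members lie far from their own list medians.

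The largest rise was that of a gene of the contractile apparatus. *Mybphl*, an atrial relative of the myosin-binding proteins, had intensities of 54.3, 51.9, 57.2 and 56.3 on the CTL and 154, 948, 1239 and 274 on the DKO arrays. All 4 CTL hearts lay near the background ceiling, and the DKO hearts lay above them but differed 8.07-fold among themselves. The log2 fold change was 3.10 ± 0.52 (SE, adjusted p = 0.045), the largest and among the least certain, since the call was lost in 9 of 19 alternatives. After TAC it was 1.91 (adjusted p = 0.14). *Tnnt1*, troponin T of slow skeletal fibres, had intensities of 543, 624, 623 and 744 on the CTL and 1408, 1540, 1814 and 1298 on the DKO arrays, with every DKO heart above every CTL heart. Its log2 fold change was 1.25 ± 0.12 (SE, adjusted p = 5.71e-04). *Scn4b*, an auxiliary subunit of the cardiac sodium channel, read 436, 532, 446 and 718 on the CTL and 1254, 1193, 1158 and 1246 on the DKO arrays. The DKO hearts were tightly grouped, and the log2 fold change was 1.22 ± 0.13 (SE, adjusted p = 0.00229), whereas another *Scn4b* probe gave -0.15 and was not called. *Ppp1r1b*, an inhibitor of protein phosphatase 1 under the control of cAMP signalling, read 50.3, 45.7, 45.2 and 43.3 on the CTL and 145, 134, 144 and 96 on the DKO arrays. Since this *Ppp1r1b* probe was at background in CTL hearts, its rise is given as a bound of at least 2.38-fold (adjusted p = 2.48e-04). Other *Ppp1r1b* probes, near the background ceiling in both groups, gave log2 fold changes of 0.10 and 0.07 and were not called.

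Beside these genes, the list of the sarcomere, Z-disc and titin held no called gene, but *Mybphl* and *Tnnt1* were placed in other lists. Of its 27 genes, 5 were higher and 1 lower at an unadjusted p under 0.05 (median 0.03). *Ankrd1*, a stress-responsive partner of titin, had 8772, 9828, 9945 and 9290 on the CTL and 11260, 12130, 12040 and 15440 on the DKO arrays. The groups did not overlap, but the log2 fold change of 0.42 had an adjusted p of 0.296. Of 32 genes of calcium cycling and the T-tubule, *Ppp1r1b* rose and the median was 0.00. *Camk2b*, a subunit of the calcium and calmodulin dependent kinase, read 243, 255, 206 and 296 on the CTL and 127, 165, 166 and 171 on the DKO arrays, lower in each DKO heart, with a log2 fold change of -0.67 (adjusted p = 0.0784). Of 28 sodium, potassium and pacemaker channel genes, *Scn4b* was the only one called, and the median was 0.01. The pacemaker channel *Hcn2* had a log2 fold change of -0.64 (adjusted p = 0.383) and *Kcne1*, a potassium channel subunit, one of 0.48 (adjusted p = 0.417).

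Atrial and fetal genes were among the lists with a raised median. Of 14 atrial markers, *Mybphl* and *Stard10*, a lipid transfer protein, rose, and 10 of 14 differences were positive (median 0.07 in sham, 0.17 after TAC). At an unadjusted p under 0.05, 5 atrial markers were higher and 2 lower. *Stard10* had 219, 216, 220.0 and 268 on the CTL and 439, 558, 532 and 488 on the DKO arrays, without overlap, and a log2 fold change of 1.13 ± 0.10 (SE, adjusted p = 3.25e-04). *Myl4*, the essential light chain of atrial myosin, read 153, 164, 138 and 175 on the CTL and 203, 207, 261 and 205 on the DKO arrays without a call (0.47 on the log2 scale, adjusted p = 0.194). Another pair of atrial markers, *Myl7* and *Sln*, lay at or near background. Averaged over its members as a deviation from the mean of all 8 arrays, the atrial list lay between -0.24 and -0.18 on the CTL arrays and between 0.01 and 0.33 on the DKO arrays. Much of this came from the 2 called members, and over the other 12 the ranges were -0.09 to -0.045 and -0.01 to 0.11.

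The hypertrophy and fetal program had the highest median of the 44 lists. Of 21 members, 15 differences were positive, 10 were higher and none lower at an unadjusted p under 0.05, and the median was 0.20, against 0.04 after TAC. With 1 sham array left out at a time, the median ranged from 0.19 to 0.32. *Serpina3n*, an acute-phase protease inhibitor, was the only called member, with 153, 195, 129 and 178 on the CTL and 282, 322, 267 and 302 on the DKO arrays. Its log2 fold change of 0.86 ± 0.12 (SE, adjusted p = 0.0144) was lost in 6 of 19 alternatives and was 0.04 after TAC. *Nppa*, the atrial natriuretic peptide, read 3875, 8429, 8136 and 2799 on the CTL and 7838, 10680, 11960 and 17960 on the DKO arrays. Its groups overlapped, and the log2 fold change of 1.15 ± 0.34 (SE) had an adjusted p of 0.549. *Comp*, a cartilage matrix protein, passed the adjusted p (0.0254) at a log2 fold change of 0.58, just under the fold limit. The fetal myosin *Myh7*, at 0.34 (adjusted p = 0.809), the natriuretic peptide *Nppb*, at 0.15, and skeletal actin *Acta1*, at 0.20, were not called.

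**Figure D3:**
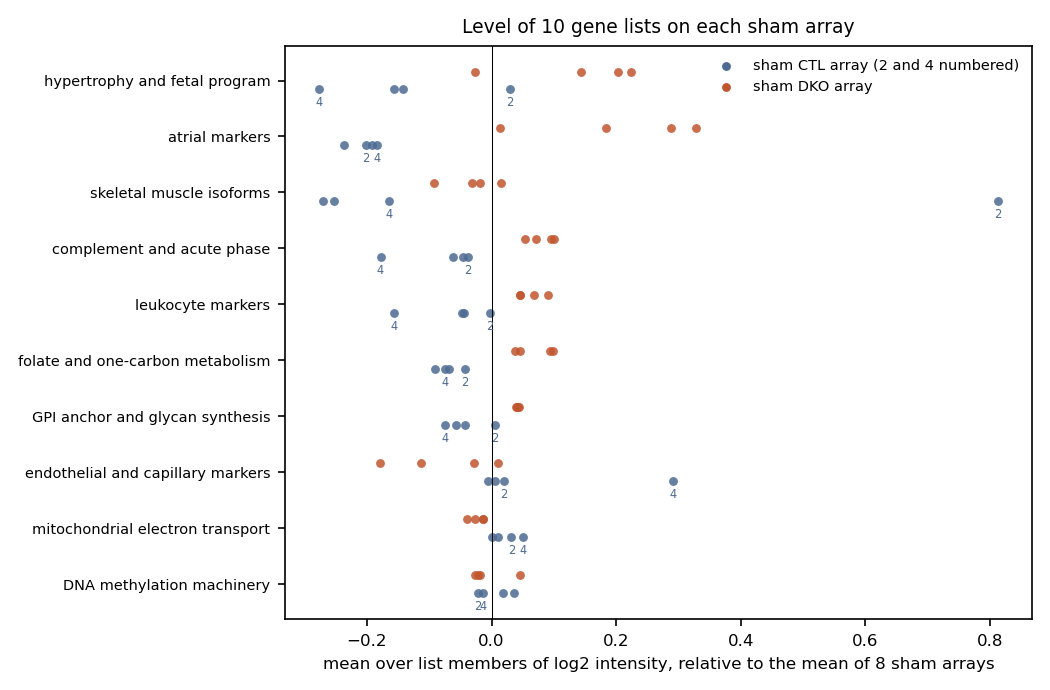
Mean level of selected gene lists on each of the 4 CTL and 4 DKO sham arrays, as the mean log2 deviation of the members from their average over the 8 arrays. The means include called members, and much of the gap between the groups in the atrial list comes from *Mybphl* and *Stard10*. Sham CTL 2 is set apart in the skeletal muscle list (0.81) and sham CTL 4 in the endothelial list (0.29).

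Skeletal muscle isoforms gave a mixed picture that turned on 1 control heart. Of 29 genes, *Tnnt1* rose and the median was -0.14, but 14 of the 29 genes were highest on sham CTL 2, and 8 of them exceeded every other CTL array more than 2-fold. *Pvalb*, a calcium buffer of fast fibres, had 50.3, 1389, 45.1 and 112 on the CTL arrays. *Myh4*, a fast myosin heavy chain, had 34.9, 298, 37.9 and 42.8. Without sham CTL 2 the list median was 0.07, with 19 positive differences, and 2 members were called. They were *Tnnt1* and *Atp2a1*, the calcium pump of fast skeletal fibres. *Atp2a1* had 66.4, 2021, 65.4 and 74.3 on the CTL and 421, 781, 1149 and 287 on the DKO arrays, so that sham CTL 2 exceeded every DKO heart while the other CTL hearts lay below all of them. Its log2 fold change was 1.84 with all arrays (adjusted p = 0.867), 3.07 without sham CTL 2 (adjusted p = 0.0102) and 1.83 after TAC (adjusted p = 0.0113). In the DKO hearts *Myh4* and *Pvalb* lay near background, whereas *Atp2a1* and some other members of the list lay well above it. The source of the fast-muscle RNA on sham CTL 2 was not tested.

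Transporters and some metabolic enzymes were among the strongest rises. *Slc9a3*, a sodium and proton exchanger known from kidney and gut epithelium, read 54.2, 51.7, 40.6 and 42.4 on the CTL and 235, 269, 268 and 296 on the DKO arrays. The CTL hearts were at or near the background ceiling and the DKO hearts formed a narrow group, with a log2 fold change of 2.51 ± 0.11 (SE, adjusted p = 6.25e-07). *Slc17a7*, which loads glutamate into synaptic vesicles, read 79, 85.8, 79.7 and 96.7 on the CTL and 176, 206, 149 and 196 on the DKO arrays, a log2 fold change of 1.08 ± 0.11 (SE, adjusted p = 8.91e-04). They were the only called members of 25 glutamate, organic ion and proton transporters, whose median was -0.00. The related exchangers *Slc9a2*, at -0.40, and *Slc4a3*, at -0.36, were not called.

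*Aldh1l1*, which oxidizes formyl-tetrahydrofolate, read 62.8, 52, 62.6 and 65.8 on the CTL and 235, 310.4, 248 and 240.1 on the DKO arrays, without overlap. The log2 fold change was 2.08 ± 0.10 (SE, adjusted p = 2.24e-06). It was the only called gene of 26 in folate and one-carbon metabolism (median -0.00), but 5 members were higher at an unadjusted p under 0.05. Among them the serine hydroxymethyltransferase *Shmt1* was at 0.56 (adjusted p = 0.373), *Ftcd*, which links histidine breakdown to folate, at background in CTL and at least 1.25-fold higher (adjusted p = 0.0765), and the mitochondrial enzyme *Mthfd2* at 0.41 (adjusted p = 0.44).

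*Alox5*, the first enzyme of leukotriene synthesis, read 126, 120.5, 139.7 and 100.1 on the CTL and 497, 309, 293 and 348 on the DKO arrays, with a log2 fold change of 1.55 ± 0.15 (SE, adjusted p = 9.04e-04). Its 3 called probes gave 1.55, 1.23 and 0.97. It was the only called gene among 30 of lipid mediator synthesis (median -0.04), and the next enzyme of the pathway, the leukotriene synthase *Ltc4s*, was at -0.36 and not called. *Pygl*, the liver form of glycogen phosphorylase, rose, with 152, 158, 171 and 162 on the CTL and 251, 265, 228 and 284 on the DKO arrays (log2 fold change 0.68, adjusted p = 0.00486) and was the only called gene of 27 in glucose uptake, glycolysis and glycogen metabolism (median -0.02). Enzymes of the glycosyl anchor of membrane proteins and of glycan synthesis held 3 called genes of 30 (median 0.02). *Pigh*, a subunit of the enzyme that starts the anchor, had 129.9, 175, 136 and 134 on the CTL and 339, 336, 308 and 248 on the DKO arrays and a log2 fold change of 1.10 (adjusted p = 0.0021), while its other probe above background gave 0.08. *Pigz*, which adds a mannose to the anchor, was at 0.59 (adjusted p = 0.0313) and *Gcnt1*, which branches O-glycans, at 0.80 (adjusted p = 0.0269). Both of these calls were among the weaker ones, lost in 9 and 6 of 19 alternatives.

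The main energy pathways of the heart held no called gene. Of 30 genes of fatty acid uptake and oxidation, 1 had an unadjusted p under 0.05 (median 0.01). Of 44 genes of mitochondrial electron transport, 35 had a negative difference, 3 were lower at an unadjusted p under 0.05, and the median was -0.04 in sham and -0.05 after TAC. The members with the smallest p were the complex III subunit *Uqcrc1* at -0.23 and the complex I subunits *Ndufb5* at -0.21 and *Ndufs8* at -0.20. Of 28 genes of the citrate cycle and its regulators, the transcriptional coactivator *Ppargc1a* was at -0.47 and the nuclear receptor *Esrrg* at 0.41, neither called (median -0.06). The median was -0.07 over 25 genes of ketone body and branched-chain amino acid metabolism. *Bdh1*, the enzyme interconverting the main ketone bodies, read 502, 685, 610.1 and 915 on the CTL and 158, 421, 195 and 408 on the DKO arrays. Each DKO heart was below every CTL heart, yet the DKO values were spread, and the log2 fold change of -1.30 had an adjusted p of 0.247, which fell below 0.05 in 3 of 19 alternatives. Medians were 0.02 over 35 glutathione and antioxidant enzymes and 0.04 over 30 genes of iron, heme and globin, with no called member. The iron exporter *Slc40a1* was at 0.71 (adjusted p = 0.101), the ferroxidase *Cp* at 0.67 (adjusted p = 0.0665) and the transferrin receptor *Tfrc* at 0.41.

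Growth factors and their receptors held the largest number of called genes in a list after the neuronal genes, with *Sort1* counted in both lists. Of 44 genes of the EGF, FGF and neurotrophic families, 4 rose and 1 fell, and the median was 0.04. *Fgf7*, a growth factor that acts on epithelial cells, read 59.1, 68.4, 58.7 and 49.9 on the CTL and 238, 187, 165 and 192 on the DKO arrays, with a log2 fold change of 1.72 ± 0.12 (SE, adjusted p = 5.44e-05), against 0.71 after TAC (adjusted p = 0.126). *Gdnf*, a neurotrophic ligand, had 46.2, 53.7, 53.5 and 56.2 on the CTL and 105, 104, 119.9 and 116 on the DKO arrays, about the background ceiling in CTL and clear of it in DKO, with a log2 fold change of 1.09 (adjusted p = 1.44e-04). *Fgfrl1*, an FGF receptor without a kinase domain, had 135, 149, 155 and 158 on the CTL and 314, 303, 264 and 285 on the DKO arrays (log2 fold change 0.96, adjusted p = 3.06e-04), and *Sort1*, a sorting receptor for neurotrophin precursors, had 0.66 (adjusted p = 0.00651). In the other direction, *Egf*, the epidermal growth factor, read 175, 163, 169 and 166 on the CTL and 63.3, 95.8, 88.1 and 79.9 on the DKO arrays. The CTL hearts were nearly equal and all DKO hearts lay far below them, with a log2 fold change of -1.05 ± 0.11 (SE, adjusted p = 0.00166). *Egf* was the only gene whose fall was called whichever of the 8 arrays was left out. *Ret*, the signalling receptor for *Gdnf*, read 156, 212, 164 and 194 on the CTL and 106, 143, 107 and 98.5 on the DKO arrays without a call (-0.68 on the log2 scale, adjusted p = 0.0954).

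Other signalling families held 1 called gene or none. Of 32 adrenergic, renin-angiotensin and endothelin genes, *Pkib*, an inhibitor of protein kinase A, rose by 0.71 (adjusted p = 0.00617), against 0.15 after TAC, and the receptor kinase *Grk5* was at 0.47 without a call (median 0.04). None was called of 40 genes of the TGF-beta superfamily (6 lower and 0 higher at an unadjusted p under 0.05, *Tgfb1* at -0.26, median -0.04), of 43 Wnt genes (*Wnt5a* at -0.42, the antagonist *Dkk3* at 0.58, median 0.01), of 21 IGF genes (*Igfbp5* at 0.43, median 0.01), of 32 immediate early genes (median -0.00) or of 19 circadian clock genes (median -0.03).

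Genes of neurons and synapses were called in both directions. Of 42 members, 4 rose and 2 fell, with a median of -0.05. Those that rose were *Ppp1r1b*, *Slc17a7*, *Sort1* and *Arpp21*, a phosphoprotein regulated by cAMP. *Arpp21* was at background in CTL, with 49, 47.9, 46.7 and 51.7 on the CTL and 88.9, 75.4, 85.7 and 74.1 on the DKO arrays, and rose at least 1.5-fold (adjusted p = 0.00229). *Lrtm1*, a membrane protein with leucine-rich repeats, fell most of all genes. It read 2106, 2076, 1706 and 2072 on the CTL and 244, 874, 728 and 469.9 on the DKO arrays, with every DKO heart at less than the lowest CTL heart, and the DKO values spanned 3.59-fold. The log2 fold change was -1.93 ± 0.30 (SE, adjusted p = 0.0283), another called probe gave -1.81, and after TAC the difference was -1.97. The call was lost in 7 of 18 alternatives, 5 of them omissions of 1 array (adjusted p up to 0.356). *Nrn1*, neuritin, a neurite-promoting surface protein, had 192, 218, 234 and 113 on the CTL and 90.5, 79.9, 73.6 and 92.7 on the DKO arrays. The log2 fold change of -1.12 (adjusted p = 0.0459) was lost in 13 of 19 alternatives.

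Developmental regulators included 3 rises. Of 90 developmental transcription factors, *Irx5* and *Pou4f1* rose (median -0.00), and of 38 Hox genes, *Hoxc6* (median 0.03). Differences of the 90 factors ran from -1.06 to 1.27. At an unadjusted p under 0.05, 9 of them were higher and 3 lower, and no fall was called. *Irx5*, a homeobox factor of the working ventricle and its repolarization gradient, had 137, 147, 214 and 210.5 on the CTL and 322, 422, 518 and 441 on the DKO arrays, with a log2 fold change of 1.27 ± 0.17 (SE, adjusted p = 0.00904, or 0.052 without sham CTL 2). *Pou4f1*, a factor of sensory neurons, read 38.7, 45, 42.4 and 39.1 on the CTL and 81.5, 67.4, 83.5 and 74.6 on the DKO arrays, and *Hoxc6*, a trunk patterning gene, read 40.4, 46.3, 37.2 and 39.5 on the CTL and 64.9, 68.4, 79.9 and 76.2 on the DKO arrays. Both were at background in every CTL heart, and the rises are bounds of at least 1.42-fold (adjusted p = 8.91e-04) and 1.34-fold (adjusted p = 0.00238). Their DKO levels were only slightly above background. *Vgll2*, a cofactor of skeletal muscle differentiation, was at background in CTL and at least 1.65-fold higher without a call (adjusted p = 0.0958), and *Eya1*, a transcriptional coactivator of organ development, was at 0.79 (adjusted p = 0.103). No gene was called among 28 core cardiac transcription factors (median -0.00).

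The imprinted, germline and simple epithelial lists held 2 called genes between them. Of 44 imprinted genes, 22 differences were positive and 22 negative, and only *Nap1l5*, a nucleosome assembly protein expressed from the paternal allele, was called. It read 44.2, 49.9, 50.1 and 39.5 on the CTL and 252, 182, 215 and 196 on the DKO arrays, below the background ceiling in every CTL heart, and rose at least 3.9-fold (adjusted p = 2.24e-06). The other imprinted genes with an unadjusted p under 0.05, the growth inhibitor *Cdkn1c* at -0.43 and *Mest* at -0.30, were not called. Of 34 germline genes with methylated promoters, none was called, 1 was higher and 1 lower at an unadjusted p under 0.05, and the median was 0.03. The homeobox gene *Rhox5* read 133, 113, 139 and 166 on the CTL and 229.7, 207, 273 and 474 on the DKO arrays. Each DKO heart was above every CTL heart, with a log2 fold change of 1.03 and an adjusted p of 0.167. Of 30 simple epithelial genes, *Krt8*, a keratin of simple epithelia, had 50.5, 58.1, 60.3 and 61.9 on the CTL and 78.5, 91, 100.4 and 109.5 on the DKO arrays, a log2 fold change of 0.71 (adjusted p = 0.0245) in sham and of 1.43 after TAC, while the list median was -0.04.

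**Figure D4:**
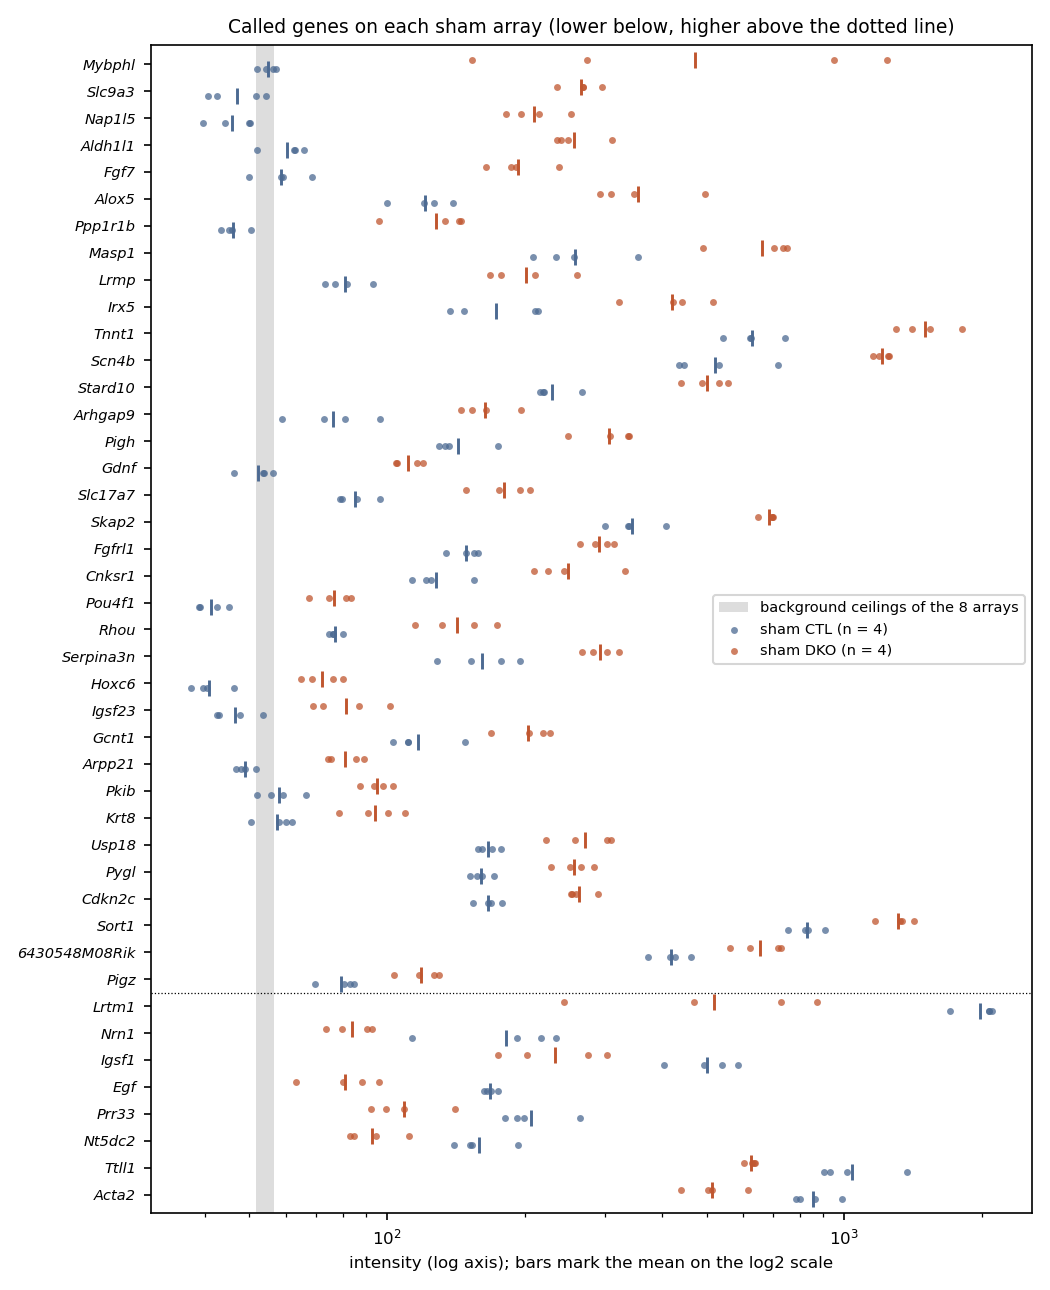
Intensity of each called gene on the 4 CTL (blue) and 4 DKO (orange) sham arrays, on a log axis, with the mean of each group as a bar and the range of the background ceilings as a grey band. Genes above the dotted line rose and the 8 below it fell. *Mybphl* and *Lrtm1* have the widest DKO spread.

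Immune lists held 6 called rises and 0 falls. Of 40 leukocyte markers, 3 rose (median 0.05). *Lrmp*, an endoplasmic reticulum protein of lymphoid cells, read 92.9, 73.3, 81.6 and 76.9 on the CTL and 261, 168, 211 and 178 on the DKO arrays (log2 fold change 1.32, adjusted p = 8.91e-04). *Arhgap9*, a GTPase activating protein of blood cells, read 59, 72.7, 81 and 96.6 on the CTL and 154, 196, 146 and 165 on the DKO arrays (1.11, adjusted p = 0.00638). *Skap2*, an adaptor of leukocyte adhesion, read 299.9, 336, 338 and 407 on the CTL and 648, 697, 698 and 695 on the DKO arrays (0.996, adjusted p = 5.39e-04). In each case all DKO hearts lay above all CTL hearts on the called probe. Another *Lrmp* probe, above background on all 8 arrays, gave 0.41 with overlapping groups and no call (adjusted p = 0.52). The defining leukocyte marker *Ptprc* was at background on all 8 arrays, and *Csf1r* and *Cd3e* differed by 0.16 and 0.05 without a call. *Stab1*, a scavenger receptor of resident macrophages, read 432, 534, 534 and 782 on the CTL and 209, 341, 284 and 303 on the DKO arrays, with a log2 fold change of -0.99 and an adjusted p of 0.0705.

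Complement and acute-phase genes had a list median of 0.12, next to that of the hypertrophy program, with 24 of 34 differences positive and 2 called rises. The median was 0.02 without sham CTL 4, the array that stood apart, and 0.04 after TAC. *Masp1*, a protease of the lectin pathway of complement, read 354, 235, 257 and 209 on the CTL and 704, 490.2, 734 and 750.3 on the DKO arrays, with a log2 fold change of 1.35 ± 0.17 (SE, adjusted p = 0.00538). After TAC the difference was 0.34 (adjusted p = 0.632). The other called member was *Serpina3n*. The complement component *C4a* was at 0.64 (adjusted p = 0.08). In the other direction, *Retnla* read 124, 161, 143 and 129 on the CTL and 99, 78.4, 94.9 and 62 on the DKO arrays. Each DKO heart was below every CTL heart, without a call (-0.75 on the log2 scale, adjusted p = 0.088). At an unadjusted p under 0.05, 9 members of the list were higher and 2 lower.

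Of 43 genes of the interferon response and antigen presentation, *Usp18*, which removes the interferon-induced ISG15 tag, rose (158, 162, 170.0 and 178 on the CTL and 303, 223, 258 and 308 on the DKO arrays, log2 fold change 0.70, adjusted p = 0.0216), and the median was 0.01. Its call was lost in 6 of 19 alternatives, all omissions of 1 array (adjusted p up to 0.1003). *H2-Ab1*, a class II antigen-presenting chain, read 47.9, 46.6, 485 and 584 on the CTL and 909, 339, 471 and 866 on the DKO arrays. A pair of CTL hearts lay at background and the other pair in the range of the DKO hearts, so that the log2 fold change of 1.91 had an adjusted p of 0.83. Its partner chain *H2-Aa* gave 1.81 (adjusted p = 0.833), whereas the class II genes *H2-Eb1* and *Cd74* gave 0.02 and 0.10. Of 47 chemokines and cytokines none was called (median 0.02).

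Structural and vascular lists held a single called gene. *Acta2*, smooth muscle actin, read 987, 864, 784 and 802 on the CTL and 515, 505, 615 and 439.5 on the DKO arrays, without overlap, with a log2 fold change of -0.73 ± 0.11 (SE, adjusted p = 0.0216). Other *Acta2* probes gave -0.56, -0.58 and -0.35 without a call, and after TAC the difference was -0.00. The call was lost in 7 of 18 alternatives, which were 5 omissions of 1 array and both models over 20 arrays (adjusted p up to 0.745). Of the 23 smooth muscle and pericyte markers it was the only one called (median -0.02), and smooth muscle myosin *Myh11* was at -0.33 and the kinase *Mylk* at -0.29. Endothelial and capillary markers had the lowest median, -0.17, with 30 of 34 differences negative and 6 lower at an unadjusted p under 0.05, none of them called. The transcription factor *Sox18* read 919.8, 916, 827 and 997 on the CTL and 734, 624, 748 and 592 on the DKO arrays, lower in each DKO heart, with a log2 fold change of -0.44 (adjusted p = 0.19). The defining markers *Pecam1* and *Cdh5* differed by -0.06 and -0.16. Without sham CTL 4, on which the list lay at 0.29, the median was -0.07, and after TAC it was -0.04. Fibroblast markers had a median of -0.06 over 23 genes (-0.11 without sham CTL 4), 40 genes of extracellular matrix and fibrosis one of 0.01, and 21 epicardial, Schwann and adipose markers one of -0.02.

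Lists of housekeeping machinery had medians near 0. They were 0.04 over 38 cytosolic ribosomal proteins, 0.02 over 44 heat shock proteins and proteasome subunits and -0.00 over 38 cell cycle genes. The called gene among these was *Cdkn2c*, an inhibitor of the cyclin D kinases, with 169, 154, 166 and 178 on the CTL and 289.6, 254, 253 and 259 on the DKO arrays (log2 fold change 0.66, adjusted p = 0.00314).

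The 8 called genes outside every list were *Cnksr1*, a scaffold of Ras signalling, *Rhou*, an atypical small GTPase, *Igsf23* and 6430548M08Rik, which rose, and *Igsf1*, *Prr33*, *Nt5dc2* and *Ttll1*, which fell. *Cnksr1* had 122, 114, 155 and 125 on the CTL and 209, 244, 226 and 331 on the DKO arrays, with a log2 fold change of 0.96 (adjusted p = 0.0192). *Rhou* had 76.3, 74.8, 80.3 and 76.1 on the CTL and 115, 174, 132 and 155 on the DKO arrays, with 0.89 (adjusted p = 0.00651). Neither group of hearts overlapped the other for these genes. *Igsf1*, an immunoglobulin family membrane protein, had 539.8, 493, 403 and 587 on the CTL and 174, 276, 303 and 202 on the DKO arrays, a log2 fold change of -1.11 (adjusted p = 0.0254), and another of its probes gave -0.98. *Ttll1*, which adds glutamate chains to tubulin, read 1016, 931, 905 and 1376 on the CTL and 605, 628, 637 and 635 on the DKO arrays (-0.73, adjusted p = 0.0313), lower in every DKO heart. *Prr33* was at -0.93 and *Nt5dc2* at -0.77 (adjusted p = 0.0261 and 0.0254). Each lost its call in 7 alternatives, and another *Prr33* probe, above background on all 8 arrays, gave 0.23 in the opposite direction (adjusted p = 0.867).

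Promoter CpG content was then compared across the called genes, a property that the calls did not use. RefSeq promoter windows of 250 bases before to 50 after the start were found for 27 of the 35 genes that rose, 6 of the 8 that fell and 15207 of all genes. The median ratio of observed to expected CpG was 0.523 in the genes that rose and 0.281 in those that fell, against 0.713 in genes above background and 0.611 in all genes. Windows below a ratio of 0.48 were classed as low in CpG, which held for 13 of the 27 genes that rose (48.2%) and 5 of the 6 that fell (83.3%), compared with 26.5% of genes above background and 39.5% of all genes. Windows with a ratio above 0.75 and a GC content above 55% were classed as high, which held for 6 of the 27 and none of the 6, compared with 39.0% of genes above background and 31.0% of all genes. Read the other way, 0.484% of low-CpG, 0.228% of intermediate and 0.152% of high-CpG genes above background rose. Over all genes with a window the shares were 0.217%, 0.178% and 0.127%, in the same order. *Pou4f1* had the highest ratio of the called genes (1.24) and *Mybphl* the lowest (0.0819). These shares are descriptive, as genes were not tested as a set.

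**Figure D5:**
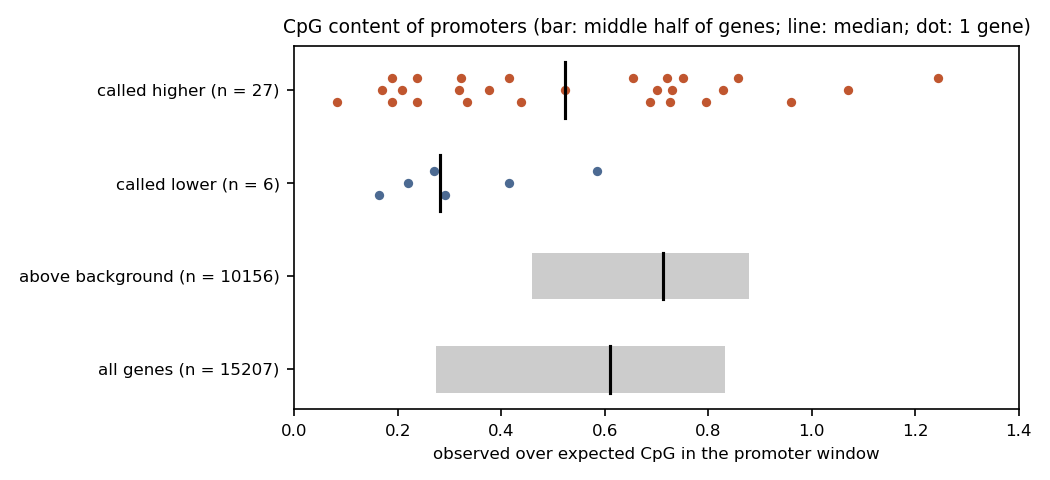
Observed over expected CpG in RefSeq promoter windows of genes that rose (27), genes that fell (6), genes above background and all genes with a window. The called genes span the whole range, with medians of 0.523 and 0.281 against 0.713 for genes above background.

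The sham differences were set beside those in the 6 CTL and 6 DKO hearts after TAC, which are other mice. All 57 called probes had the same sign there, and 36 of them were also called, 63.2% of the sham calls and 69.2% of the 52 TAC calls (0.115% of probes). The difference of the genotype effects, tested over all 20 arrays, was called for 1 probe (0.00221%), and 5.39% of probes had an unadjusted p under 0.05. That probe was *Nap1l5* (adjusted p = 7.35e-05 in limma). Its CTL hearts were at background on all arrays of both sets, and the sets were normalized separately, so the fitted difference gives no size of a change between them. Among the 57 called probes, 18 had an unadjusted interaction p under 0.05. These 57 probes were selected by their difference on the same sham arrays that enter the interaction. The count of 18 therefore cannot be read against the share of all probes. Rises of near equal size in both sets were those of *Slc9a3* (2.51 and 2.45), *Aldh1l1* (2.08 and 1.92), *Alox5* (1.55 and 1.47) and *Scn4b* (1.22 and 1.19), while *Acta2*, *Serpina3n* and *Masp1*, with values after TAC of -0.00, 0.04 and 0.34, were called in sham hearts and not after TAC. The interaction did not pass for these 3 genes (adjusted p = 0.877 for each).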

How the data were processed

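Left ventricular RNA of 8 sham hearts (4 CTL, 4 DKO), 1 array per mouse, was analysed, with 12 TAC arrays beside them. The authors processed the arrays in GenomeStudio 2010.3 and deposited linear intensity values for 45281 probes. How background and normalization were handled is not stated in the sources used here. Sorted values were equal within 0.2% for at least 97.5% of probes among sham arrays and for at most 0.413% between sham and TAC arrays, so that both sets had been quantile normalized apart. Levels were therefore not compared between sets. Through the platform annotation, 34885 probes name 1 gene, 18 several and 10378 none, and 34807 symbols were updated by gene identifier, giving 19057 genes.

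The deposited intensity values were log2 transformed with no offset and fitted with limma 3.58.1 in R 4.3.3 (lmFit and eBayes, 6 residual and 5.87 prior degrees of freedom) on the 8 arrays, with Benjamini-Hochberg adjustment over all probes. The 12 TAC arrays were fitted alone, and the interaction of genotype and surgery on all 20. The scripts were tested on simulated data. The number of arrays limits the precision. A probe at background on all arrays of a group has only a bound. It was taken on the log2 scale as the mean of the bright group over the mean background ceiling of the dim group's arrays. Probes above background on at most 1 of the 8 arrays were given no fold change in the text. Lists took, for a gene with several probes, that of highest mean.

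Named were the 15 largest rises and 8 largest falls among called probes without overlap, up to 4 called members of each list and direction, up to 3 further members with the smallest unadjusted p under 0.05, the leading markers of each cell type, and genes of the study's text. *Atp2a1*, *H2-Aa*, *H2-Eb1*, *Cd74*, *Csf1r*, *Nppb*, *Acta1*, *Cnksr1*, *Rhou*, *Igsf23* and 6430548M08Rik were named after their values were seen. The comparison, the lists and the rule were chosen with earlier results of these data known. Alternatives were the model over 20 arrays, other normalizations, an offset of 16, filters, other eBayes settings, array weights, a block, and omission of each array.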

Additional observations from a re-analysis of the deposited data

Results flagged for a closer look

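Within each group of 4 arrays, 176 sets of values (genes and list means) were examined for a lone high or low array, and 20 stood out, 7 of them through sham CTL 4. Chance gives about 1 in 20 such sets.

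Among genes, the array that stood apart read 490 for *Masp1* (sham DKO 2), 268 for *Stard10* (sham CTL 4), 175 for *Pigh* (sham CTL 2), 1706 for *Lrtm1* (sham CTL 3), 648 for *Skap2* (sham DKO 1) and 290 for *Cdkn2c* (sham DKO 1, 289.6). In these 6 called genes the array still lay on its own group's side. For *Dnmt3b*, sham CTL 4 read 121.0 and sham DKO 4 read 90.3, and for a weak *Myh7* probe sham DKO 1 read 64.6.

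Among list means, given as log2 deviations from the mean of the 8 arrays, sham CTL 2 lay at 0.81 for skeletal muscle isoforms and at -0.05 for germline genes. Sham CTL 4 lay at 0.29 for endothelial markers, -0.18 for complement, 0.15 for ribosomal proteins, -0.12 for growth factors and 0.04 for simple epithelial genes. Sham DKO 2 lay at 0.14 for immediate early genes and 0.11 for heat shock proteins, sham DKO 1 at 0.04 for the methylation machinery and sham DKO 3 at 0.06 for developmental transcription factors.

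The genotype effect on *Nap1l5* gave a fitted difference of 1.53 on the log2 scale between sham and TAC hearts in the interaction test. The CTL hearts were at background on all 4 sham and all 6 TAC arrays, and the sets were normalized separately, so this value is not the size of a difference between the sets.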

How the results depend on the processing

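Counts of probes called higher ranged from 37 to 60 when 1 sham array was left out, and those called lower from 1 to 17, with 33 probes (32 higher, 1 lower) called in every omission. Without sham CTL 4 the counts were 60 and 17, and without sham CTL 2 they were 37 and 1. An offset of 16 gave 3 lower probes, robust eBayes 5 and array weights 14, against 9, and the cause was not tested. With the replicate number as a block, 48 and 10 probes were called, of which 50 in all were called without it. Correlations of same-numbered arrays (0.33, 0.052, 0.017 and 0.135) did not all exceed 0.1, so the numbers were not taken as pairs. The interaction count was 1, or 1 to 2 over omissions (2 without sham DKO 1). The model over 20 arrays gave 50 and 8, or 40 and 6 after joint quantile normalization. Calls lost most often were those of *Nrn1* (13 of 19 alternatives), *Igsf1* (10), *Mybphl*, *Ttll1* and *Pigz* (9 each) and *Krt8* (8), whereas *Stab1* passed in 7, *Cp* and *Eya1* in 6 each. Without sham CTL 2, 15 called genes lost their call with little change in log2 fold change, at adjusted p from 0.052 (*Irx5*) to 0.204 (*Nrn1*). The others were *Mybphl*, *Lrtm1*, *Acta2*, *Krt8*, *Usp18*, *Pigz*, *Cnksr1*, *Igsf1*, *Igsf23*, *Prr33*, *Nt5dc2*, *Ttll1* and 6430548M08Rik. Of the named genes whose fold change was followed through the alternatives, none above background changed direction. By contrast, *Myh4*, above background on sham CTL 2 alone, went from a log2 fold change of -0.72 to 0.02 without that array. With 4 arrays a group, differences that were not called may still exist.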
